A study of Mus musculus with 6 samples.

Results

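The genes described are the antioxidant and glutathione enzymes of the cochlea, with the regulators that set their level, compared between mice with and without Fabp7. The list named 43 mouse genes. The platform annotation paired 40 of them with a probe, and all 40 passed the filter on dim signals, among 16143 named genes that did so. The filter asked for a signal above the 40th percentile on 3 or more of the 6 arrays. The members sat well clear of that level on every array, and the lowest percentile any of them reached was 58.0, by Gpx7. The remaining 3 listed genes, Prdx5, Prdx6 and G6pdx, were not analysed here. Where a gene had several probes, the brightest stood for it. Fabp7 is the brain-type fatty acid binding protein, a carrier of long-chain fatty acids in glia. There were 3 wild-type samples, genotype Fabp7 (+/+), and 3 knockout samples, genotype Fabp7 (-/-), all from females 7 months old. RNA for a sample came from a pool of 4 cochleae, taken from 2 mice, in which the bony capsule was left on and the vestibular part taken off. The tissue therefore held bone and marrow as well as the sensory epithelium, lateral wall and ganglion. The labels name no strain and do not say in which cells Fabp7 was lost.

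Antioxidant enzymes work in relays. Superoxide dismutases turn superoxide into hydrogen peroxide, which catalase, glutathione peroxidases and peroxiredoxins then remove. Glutathione and thioredoxin supply the electrons and are themselves recharged by NADPH-dependent reductases. The transcription factor Nrf2, encoded by Nfe2l2, drives many of these genes through antioxidant response elements and is held in check by Keap1, while metallothioneins answer to zinc through metal response elements. In the cochlea these defences are studied for their part in hearing loss from noise, ageing and ototoxic drugs.

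Motifs known as binding sites of Nrf2 and of the zinc-sensing regulator were searched in the members' promoters and are shown first. Most members' windows held neither the Nrf2 motif nor the metal motif. Promoter windows ran from 250 bases before to 50 bases after each annotated gene start and came from RefSeq on build GRCm38.p6, which held 46 windows for 34 of the 40 measured genes. The core of the antioxidant response element, searched as TGACNNNGC on both strands, lay in 7 of the 46 windows (15.2%), against 12.4% of 32851 windows over all genes. Each of the 7 is printed in the sense of its gene, with the matching 9 bases in capitals. Where the capitals do not read TGAC, the match is on the opposite strand.
Gclm, chr3:122245407-122245447, plus strand: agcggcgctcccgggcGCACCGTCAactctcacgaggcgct
Mt2, chr8:94172523-94172563, plus strand: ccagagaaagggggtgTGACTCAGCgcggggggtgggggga
Nfe2l2, chr2:75704879-75704913, minus strand: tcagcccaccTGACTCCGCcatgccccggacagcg
Prdx1, chr4:116685450-116685490, plus strand: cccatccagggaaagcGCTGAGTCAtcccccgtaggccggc
Sod1, chr16:90220690-90220730, plus strand: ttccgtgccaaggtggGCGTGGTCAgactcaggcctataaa
Srxn1, chr2:152105536-152105573, plus strand: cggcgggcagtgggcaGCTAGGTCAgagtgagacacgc
Txnrd1, chr10:82859098-82859138, plus strand: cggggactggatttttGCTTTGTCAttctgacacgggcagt
The element of the metallothionein windows, searched as TGCACNC or TGCGCNC on both strands, lay in 12 of the 46 windows (26.1%) against 25.7% of all windows. Mt1 held 3 matches and Mt2 held 4, all in capitals in the full windows that follow. Mt2 also holds the antioxidant match shown before. These are matches of letters only, and the members' windows held either motif at about the share of all windows.
Mt1, chr8:94178839-94179138, plus strand: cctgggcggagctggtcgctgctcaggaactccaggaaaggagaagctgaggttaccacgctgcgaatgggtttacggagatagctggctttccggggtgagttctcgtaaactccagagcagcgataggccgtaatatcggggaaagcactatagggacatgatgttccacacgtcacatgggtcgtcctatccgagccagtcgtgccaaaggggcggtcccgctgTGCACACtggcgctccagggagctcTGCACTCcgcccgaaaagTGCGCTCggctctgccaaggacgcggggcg
Mt2, chr8:94172368-94172667, plus strand: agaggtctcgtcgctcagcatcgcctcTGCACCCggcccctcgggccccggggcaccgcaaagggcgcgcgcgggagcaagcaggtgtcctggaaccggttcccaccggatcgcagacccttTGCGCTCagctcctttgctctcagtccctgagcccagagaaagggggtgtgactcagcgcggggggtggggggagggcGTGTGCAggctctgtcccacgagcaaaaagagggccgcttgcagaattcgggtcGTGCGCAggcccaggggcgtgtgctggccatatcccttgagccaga

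Values are given as relative signal, the raw signal divided by the 75th percentile of its array, and changes as knockout minus wild type on the log2 scale. Signals of different probes are not comparable with each other, so no difference in level between genes is drawn from them. Fabp7 itself had relative signals of 3.95, 2.34 and 2.79 in the wild-type pools against 0.0179, 0.00604 and 0.0059 in knockout. The groups lay far apart, as labelled, and every knockout signal was below the 40th percentile of its array. The change was -8.42 ± 0.47 (SE), and with a limma adjusted p of 0.061 the deleted gene itself missed the threshold. With dim signals raised to the 40th percentile it was -6.57 (limma adjusted p = 0.0011). With normexp background correction at an offset of 50 it was -5.11 (limma adjusted p = 0.00038). The size of the change thus depended on how dim signals were treated. The cochlear marker Coch, a secreted protein of spiral ligament fibrocytes, gave 104, 90.6 and 106 in the wild-type pools against 103, 115 and 106 in knockout. The other inner ear markers included Otos, at 458 to 499 on the arrays, and 11 of 12 listed markers passed the filter, Kcne1 being the exception. The inner ear score, the average log2 deviation of these markers from their means, was -0.44 on wild-type array 2, 0.12 and 0.09 on the other wild-type arrays, and -0.09 to 0.17 in knockout. Slc26a5, the motor protein of outer hair cells, was dim, at 0.0247 to 0.0452 in wild type against 0.0521 to 0.0733 in knockout, a change of 0.92 ± 0.25 (limma adjusted p = 0.695). Skeletal muscle markers stood apart on knockout array 2, where their summed relative signal was 6.63 against 0.32 to 1.31 on the other 5 arrays. Of 7 cartilage markers, Acan was higher and Col2a1, Matn1 and Chad were lower in knockout at an unadjusted p under 0.05 by limma. Their adjusted p-values missed the threshold, and 5.7% of all features reached that unadjusted level. Pairs of arrays correlated at 0.988 to 0.994 over 27189 features. Wild-type array 1 had the highest 25th percentile of raw signal, 6.66 against 3.92 to 4.69 on the other arrays. Each group holds 3 pools, so a p-value measures the spread between pools of animals.

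No antioxidant or glutathione gene passed the test, and neither did any other feature. Over all 27189 features limma called 0.0% at an adjusted p under 0.05, and 0 of the 40 members. At an unadjusted p under 0.05 limma placed 0 of 40 members, where 5.7% of all features reached that level, 3.04% higher and 2.66% lower in knockout. With quantile normalization it was again 0 of 40 members, against 5.63% of all features. The lowest adjusted p of any member was 0.866. The estimates were nevertheless tight. The median half-width of the members' 95% intervals was 0.20, a 1.15-fold change, against 0.28 for all features and 0.24 for the 16143 named genes. For 36 of the 40 members (90.0%) the whole interval lay between -0.5 and 0.5, against 64.6% of all features and 73.0% of named genes. Neither comparison was matched for brightness. The member exceptions were Gpx1, Gpx2, Gsr and Hmox1. The median pooled SD within groups was 0.086 for the members and 0.14 for all features.

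The estimates leaned slightly to the knockout side. A total of 31 of 40 members lay above 0 (77.5%), against 60.7% of all features, with a median of 0.059 against 0.034. The groups did not overlap in 7 members (17.5%), all higher in knockout, where 12.4% of all features did not overlap, 8.08% higher and 4.27% lower in knockout. These 7 were Sod2, Sod3, Gpx2, Gpx4, Gss, Glrx2 and Hmox2. The lean was smaller with another scaling. The 75th percentile of raw signal was 581.06 to 620.8 on knockout arrays and 665.3 to 677.0 on wild-type arrays. With quantile normalization the members' median was 0.026 against 0.018 for all features, and 27 members lay above 0 (67.5%, against 56.2% of all features). Only Gpx4 and Hmox2 (5.0%) then had groups that did not overlap, against 11.2% of all features, 6.36% higher and 4.86% lower in knockout.

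**Figure D1:**
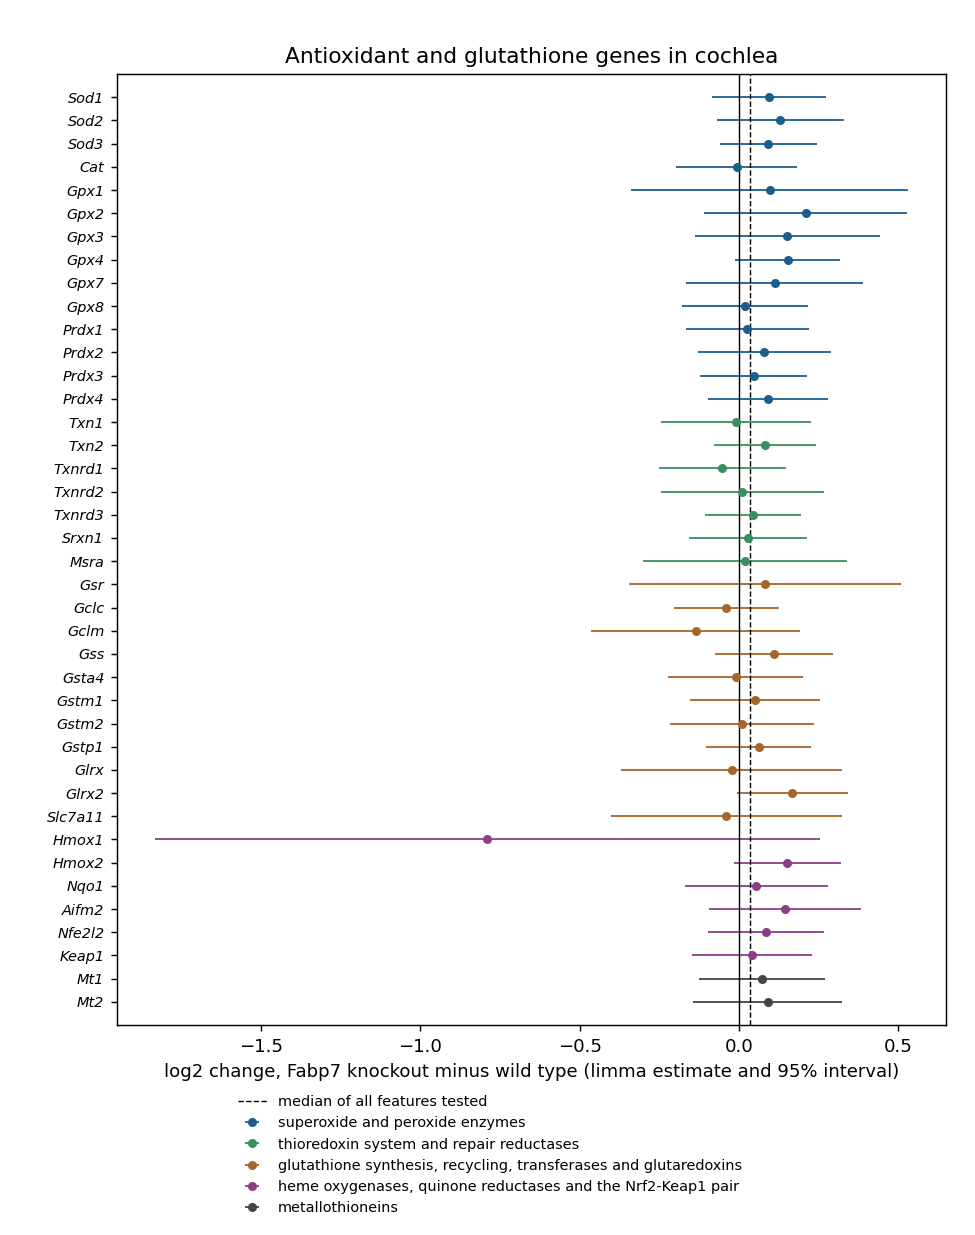
Estimated log2 change (knockout minus wild type) of the 40 measured genes with the 95% interval of the limma fit, coloured by role, with a dashed line at the median of all features. All intervals include 0. Hmox1 is the gene with the lowest estimate, -0.79, and by far the widest interval.

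Among enzymes that remove superoxide and peroxide, 14 of 16 were measured, 13 lay above 0 (92.9%) and 0 passed the test, with a median of 0.094. Of all features 60.7% lay above 0, with a median of 0.034. With quantile normalization 12 of the 14 lay above 0, with a median of 0.065. Gpx4, the selenoenzyme that reduces lipid hydroperoxides in membranes, had relative signals of 83.98, 84.2 and 88.9 in the wild-type pools against 99.4, 92.9 and 93.6 in knockout. All knockout arrays were above all wild-type arrays, a change of 0.15 ± 0.07 (SE), 1.11-fold, with an interval from -0.01 to 0.32 and a limma adjusted p of 0.866. With quantile normalization the change was 0.10. Gpx2, a glutathione peroxidase best known from epithelia of the gut, gave 60.1, 46.0 and 62.2 in the wild-type pools against 62.4, 63.3 and 67.4 in knockout. The groups were separate by a narrow margin and wild-type array 2 alone was low, and the change was 0.21 ± 0.13 (SE; limma adjusted p = 0.866).

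The superoxide dismutases were the next in order of p. Sod2, the mitochondrial manganese enzyme, gave 35.6, 30.5 and 34.3 in the wild-type pools against 36.1, 37.6 and 35.9 in knockout. Its change was 0.13 ± 0.08 (SE), and again wild-type array 2 was the lowest. Sod3, the enzyme secreted to the extracellular matrix, gave 3.27, 3.07 and 3.16 in the wild-type pools against 3.38, 3.34 and 3.40 in knockout, a change of 0.09 ± 0.06 (SE). Sod1, the copper-zinc enzyme of the cytosol, gave 93.1, 85.2 and 95.3 in the wild-type pools against 99.0, 98.7 and 94.3 in knockout. Its groups overlapped, and the change was 0.09 ± 0.07 (SE) with an interval from -0.08 to 0.27. The limma adjusted p was 0.866 for Sod2 and Sod3 and 0.871 for Sod1. Without wild-type array 2, on which the inner ear markers were also lowest, the change was 0.07 for Gpx2 and 0.06 for Sod2. The part of the inner ear markers in these values was not tested.

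Gpx1, the abundant cytosolic glutathione peroxidase, gave 118, 176 and 185 in the wild-type pools against 168, 172 and 162 in knockout. Wild-type array 1 was low while the other 5 arrays lay close together, and the change was 0.10 ± 0.18 (SE; limma adjusted p = 0.934). The remaining 8 enzymes had estimates between -0.01 and 0.15. Catalase (Cat), which breaks down hydrogen peroxide in peroxisomes, was at -0.01 ± 0.08 (SE), and at -0.14 by its dimmer probe. Gpx3, the secreted plasma enzyme, was at 0.15 ± 0.12, with its highest relative signal, 21.7, on knockout array 1. The peroxiredoxins are thiol enzymes that reduce peroxides. Those of the cytosol were at 0.03 ± 0.08 (Prdx1) and 0.08 ± 0.08 (Prdx2), that of mitochondria at 0.05 ± 0.07 (Prdx3) and that of the endoplasmic reticulum at 0.09 ± 0.08 (Prdx4). Gpx7 and Gpx8, peroxidases of the endoplasmic reticulum, were at 0.11 ± 0.11 and 0.02 ± 0.08.

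**Figure D2:**
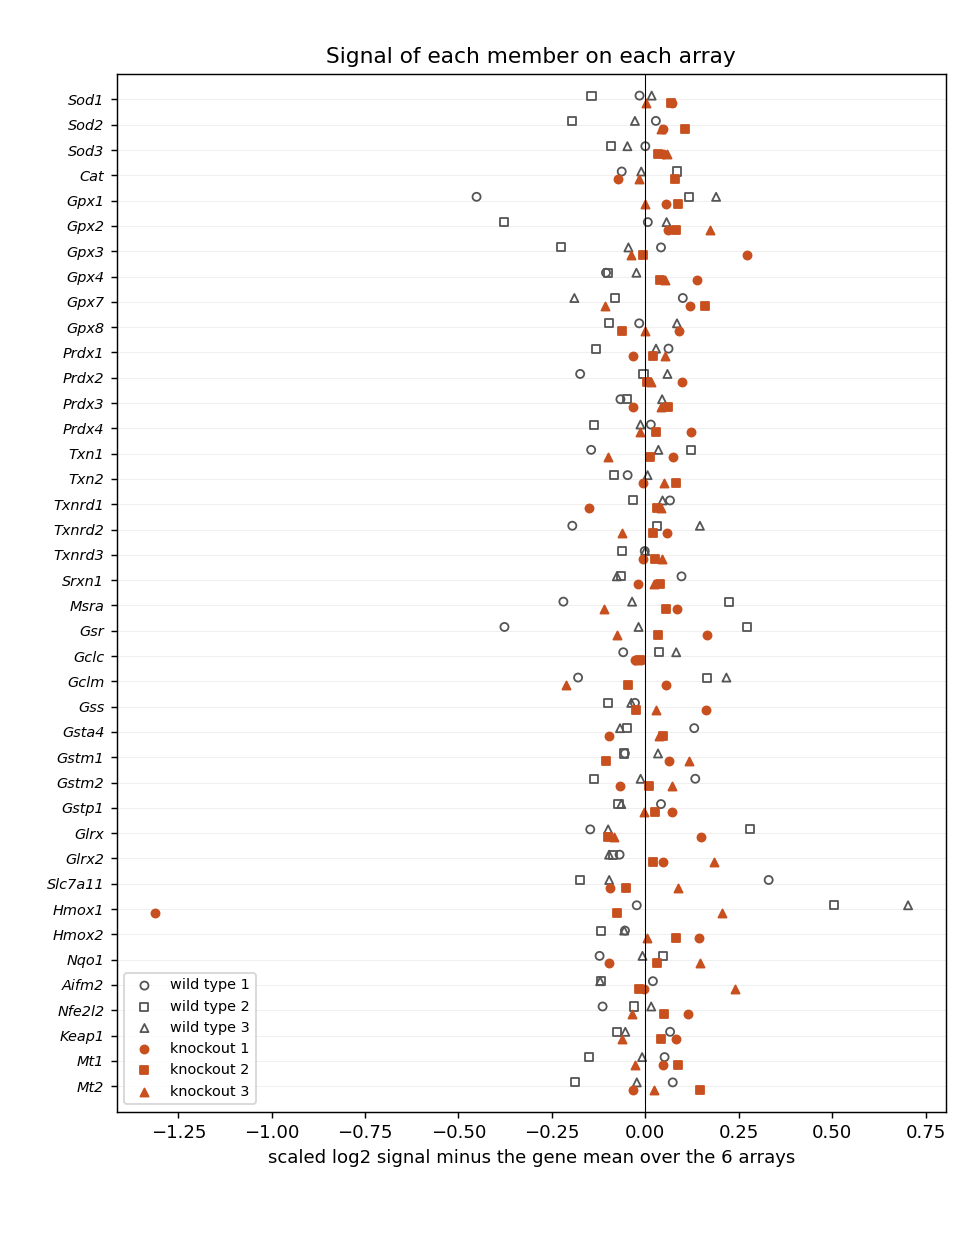
Scaled log2 signal of each gene on each array, with the mean of the gene over the 6 arrays set to 0. Open symbols are wild type, filled symbols knockout, and the shape gives the replicate number. Hmox1 on knockout array 1 lies far to the left, and Gpx1 and Gsr are low on wild-type array 1.

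All 7 genes of the thioredoxin system and its partner reductases were measured. Of these 5 lay above 0 (71.4%, against 60.7% of all features) and 2 below, 0 passed the test, and the median was 0.02. Groups that did not overlap were found in 0, against 12.4% of all features, and with 7 genes that count says little. Txn2, the mitochondrial thioredoxin, gave 31.3, 30.6 and 32.5 in the wild-type pools against 32.2, 34.2 and 33.5 in knockout. Its groups overlapped at knockout array 1, and the change was 0.08 ± 0.07 (SE), against -0.17 by its dimmer probe. The 3 thioredoxin reductases are selenoenzymes that recharge thioredoxin. Txnrd3 gave 1.22, 1.17 and 1.22 in the wild-type pools against 1.22, 1.25 and 1.26 in knockout, a change of 0.04 ± 0.06. Txnrd1, the cytosolic form, gave 11.9, 11.1 and 11.7 in the wild-type pools against 10.2, 11.6 and 11.7 in knockout, with only knockout array 1 below the rest, a change of -0.05 ± 0.08. The limma adjusted p was 0.871, 0.910 and 0.920 for these 3 genes in that order. The mitochondrial Txnrd2 was at 0.01 ± 0.10 and the cytosolic thioredoxin Txn1 at -0.01 ± 0.10. Srxn1, the sulfiredoxin that restores overoxidised peroxiredoxins, was at 0.03 ± 0.08. Msra, which repairs oxidised methionine, was at 0.02 ± 0.13. All 7 intervals lay between -0.5 and 0.5.

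For glutathione synthesis, recycling and use, 11 of 12 genes were measured and 0 passed the test. Of the 11, 6 lay above 0 (54.5%, against 60.7% of all features) and 5 below. The median of the 11 was 0.01. Gss, the second enzyme of glutathione synthesis, gave 1.59, 1.51 and 1.58 in the wild-type pools against 1.81, 1.59 and 1.65 in knockout. The groups touched without overlapping, and the change was 0.11 ± 0.08 (SE; limma adjusted p = 0.866). The subunits of the rate-limiting glutamate-cysteine ligase lay below 0. Its modifier subunit Gclm gave 0.574, 0.729 and 0.756 in the wild-type pools against 0.675, 0.63 and 0.561 in knockout, with wild-type array 1 among the knockout values, and its change was -0.14 ± 0.13. The catalytic subunit Gclc was at -0.04 ± 0.07, with an interval from -0.20 to 0.12. Slc7a11, the transporter that brings in cystine for glutathione, was at -0.04 ± 0.15 and was highest on wild-type array 1.

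Glrx2, a glutaredoxin of mitochondria and nucleus, had the lowest unadjusted p of all members, 0.0572 by limma. Its brightest probe gave 656, 648 and 643 in the wild-type pools against 711, 698 and 781 in knockout, separate groups with a change of 0.17 ± 0.07 (SE). That probe read at 85.6% to 100% of the brightest signal of its array, and on knockout array 3 it equalled that maximum. The second Glrx2 probe past the filter gave 2.57, 2.42 and 2.45 in the wild-type pools against 2.65, 2.49 and 2.38 in knockout, a change of 0.01. With quantile normalization, which sets the top of all arrays equal, the brighter probe was at 0.01 as well. The raw signals of the brighter probe overlapped, at 444028, 431129 and 429407 in the wild-type pools against 433636, 433259 and 454008 in knockout. The array values they were divided by were 677, 665 and 668 in wild type against 610, 621 and 581 in knockout. The groups were thus separate with this scaling, and not in the raw signals or with quantile normalization. Whether the brightest signals were saturated is not given in the tables used. Gstp1, a pi-class glutathione transferase, gave 13.1, 12.1 and 12.2 in the wild-type pools against 13.4, 13.0 and 12.7 in knockout, overlapping at wild-type array 1, with a change of 0.06 ± 0.07 and 0.08 by its second probe. The mu-class transferases Gstm1 and Gstm2 were at 0.05 ± 0.08 and 0.01 ± 0.09, and the alpha-class Gsta4, which clears lipid aldehydes, at -0.01 ± 0.09. Transferases of a class are alike in sequence, so signal could be shared between their probes. Glrx, the cytosolic glutaredoxin, was at -0.02 ± 0.14 and Gsr, which recycles oxidised glutathione, at 0.08 ± 0.17.

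Hmox1 was the member with the largest estimate and the largest spread. It encodes the inducible heme oxygenase, which breaks down heme and is high in macrophages that clear red cells. Its relative signals were 5.53, 7.98 and 9.16 in the wild-type pools against 2.26, 5.33 and 6.48 in knockout. Knockout array 1 was lowest, while the lowest wild-type array lay within the knockout range. On the scaled log2 axis the mean was 2.89 ± 0.38 (SD, n = 3) for wild type against 2.10 ± 0.81 (SD, n = 3) for knockout, a change of -0.79 ± 0.43 (SE) with an interval from -1.83 to 0.25 and a limma adjusted p of 0.866. Its dimmer probe gave 0.578, 0.798 and 0.736 in the wild-type pools against 0.253, 0.376 and 0.626 in knockout, a change of -0.84, with the same array lowest. Without knockout array 1 the change of the brighter probe was -0.33 (limma adjusted p = 0.980).

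Beside this, 10 of 11 macrophage markers were measured and all 10 lay below 0, with a median of -0.091. Of all features 60.7% lay above 0. Their summed relative signal was 85.5 to 99.7 in the wild-type pools against 84.5 to 90.3 in knockout, so the groups overlapped. Cd163, the scavenger receptor for hemoglobin, did not pass the filter. The complement gene C1qa was at -0.26 ± 0.08 and the chemokine receptor Cx3cr1 at -0.18 ± 0.06, with limma adjusted p-values of 0.792 and 0.816. On knockout array 1 the mean macrophage score, the average log2 deviation from each gene's mean, was 0.01 and not the lowest of the 6 arrays. The adipocyte markers were lowest on that array, by the mean score, at -0.62 against -0.24 and -0.20 on the other knockout arrays and 0.29 to 0.46 in wild type, and 7 of 9 were measured. Their summed relative signal was 8.88 to 11.5 in wild type against 8.24 to 9.995 in knockout. By that sum knockout array 1 was the highest knockout array and above wild-type array 1, so score and sum order it differently. The part of either cell type in the Hmox1 values was not tested. In these bulk samples fewer cells of a type and less RNA per cell cannot be told apart.

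Hmox2, the constitutive heme oxygenase, gave 9.07, 8.69 and 9.06 in the wild-type pools against 10.4, 9.97 and 9.45 in knockout. Its groups did not overlap under either scaling, and the change was 0.15 ± 0.07 (SE; limma adjusted p = 0.866). It was 0.12 with quantile normalization, and 0.06 by the second probe. Aifm2, a quinone reductase that restores reduced coenzyme Q at membranes, gave 0.695, 0.631 and 0.63 in the wild-type pools against 0.684, 0.677 and 0.809 in knockout. The groups overlapped at wild-type array 1, the change was 0.15 ± 0.10, and the second probe went the other way at -0.12. Keap1, which marks the Nrf2 protein for degradation, gave 10.4, 9.40 and 9.54 in the wild-type pools against 10.5, 10.2 and 9.49 in knockout, a change of 0.04 ± 0.08. Its partner Nfe2l2 was at 0.09 ± 0.07 and the quinone reductase Nqo1, a classical Nrf2 target, at 0.05 ± 0.09. Of these 6 genes, 5 lay above 0 (83.3%, against 60.7% of all features) and 0 passed the test.

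The metallothioneins, small cysteine-rich proteins that bind zinc and copper, differed little between the groups. Mt1 gave 122, 106 and 117 in the wild-type pools against 122, 125 and 116 in knockout, and Mt2 gave 59.4, 49.5 and 55.5 in the wild-type pools against 55.1, 62.4 and 57.4 in knockout. For each of them wild-type array 2 was lowest and knockout array 2 highest, and the groups overlapped. The changes were 0.07 ± 0.08 for Mt1 and 0.09 ± 0.10 for Mt2, with limma adjusted p-values of 0.891 and 0.886. A dimmer Mt1 probe was at 0.28. Without wild-type array 2 the changes were 0.01 for Mt1 and 0.02 for Mt2. Without knockout array 2, the array with the muscle markers, they were 0.05 and 0.04, and the part of either tissue was not tested. With quantile normalization the Mt1 change was -0.0008.

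**Figure D3:**
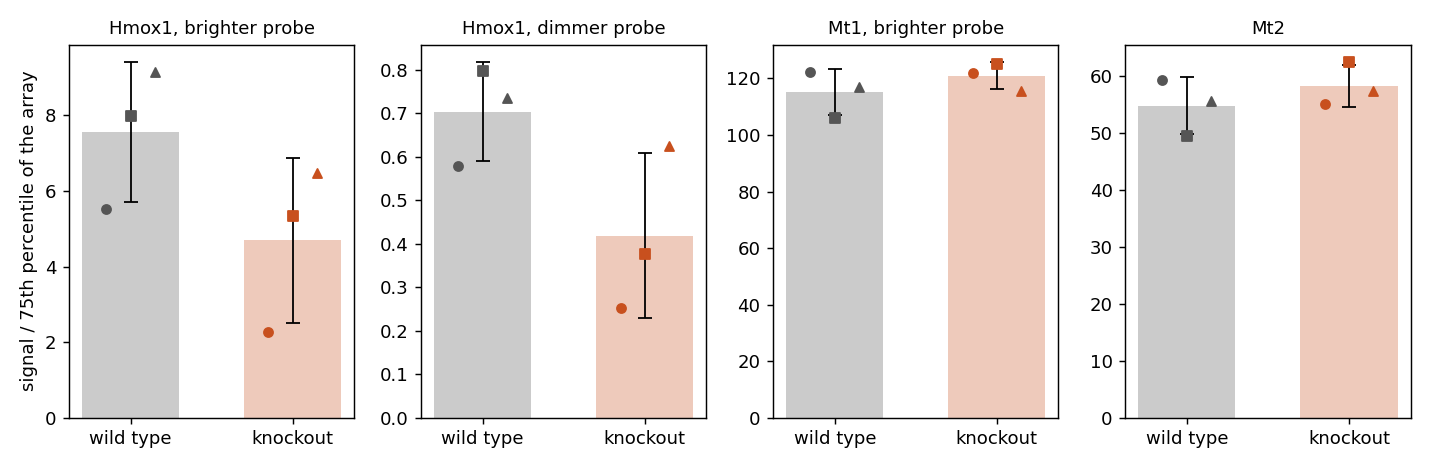
Relative signal (raw signal divided by the 75th percentile of its array) of both Hmox1 probes, the brighter Mt1 probe and Mt2. Bars are means, error bars the SD of 3 samples, and points the samples (circle, square and triangle for replicates 1, 2 and 3). For each Hmox1 probe knockout array 1 is the lowest point and the groups overlap.

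Genes with an antioxidant response element core in their window gave no separate picture, and those with the metal motif are not described as a set. A window covers 300 bases and 6 measured members have none, so genes without a match may hold an element elsewhere. The 7 are therefore not a list of the members that Nrf2 drives. Of the 7 with an antioxidant response element core, Nfe2l2, Srxn1, Prdx1, Sod1 and Mt2 lay above 0 and Gclm and Txnrd1 below, all between -0.14 and 0.09.

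The pools also differed in markers of blood-forming cells, and members were set against these. This comparison was chosen after the spread was seen, and covered 160 relations of the 40 members with scores of red cell precursor, neutrophil, macrophage and adipocyte markers over the 6 arrays. Gpx1 followed the red cell precursor score, with Pearson r of 0.96 (exact permutation p = 0.00139) and Spearman rho of 1.00 (exact permutation p = 0.00278). Without wild-type arrays 1 and 3, the farthest from the median score, r was 0.93. The red cell score was -0.43, 0.09 and 0.33 in the wild-type pools against 0.02, 0.02 and -0.02 in knockout, with 7 of 11 markers measured and a summed relative signal of 1124 to 1353 in the wild-type pools against 1301 to 1322 in knockout. Gsr followed the neutrophil score, with r of 0.98 and rho of 0.94 (exact permutation p = 0.00417 and 0.0167), and r of 0.89 without wild-type arrays 1 and 2. Glrx did likewise, with r of 0.89 and rho of 0.94 (exact permutation p = 0.00417 and 0.0167), and r of 0.97 without those arrays. Gsr gave 13.5, 21.2 and 17.4 in the wild-type pools against 19.7, 18.0 and 16.7 in knockout, and the neutrophil score was -0.36, 0.30 and -0.09 in the wild-type pools against 0.20, -0.01 and -0.03 in knockout. All 9 neutrophil markers were measured, with a summed relative signal of 1028 to 1360 in the wild-type pools against 1216 to 1381 in knockout. After Benjamini-Hochberg adjustment over the 160 relations the exact permutation p-value of each of these 3 Pearson correlations was 0.148, the lowest of the 160 and shared by 3 further relations. Txnrd2 and Srxn1 with the red cell score had r of 0.96 and -0.89 (exact permutation p = 0.00556 each) and rho of 0.83 and -0.83 (exact permutation p = 0.0583 each). Without wild-type arrays 1 and 3 r was 0.61 and -0.79. The last was Gpx4 with the adipocyte score, with r of -0.97 (exact permutation p = 0.00278) and rho of -0.94 (exact permutation p = 0.0167), and r of -0.90 without wild-type array 1 and knockout array 1. The adipocyte score separates the genotypes, as Gpx4 does. In that r, taken over all 6 arrays, this relation and the difference between the groups cannot be told apart. The points share arrays and their scaling, and 0 relations passed the adjustment. With 6 arrays an exact permutation p cannot fall below 0.00139. A single relation, however close, could therefore not pass the adjustment over 160, and its failure decides nothing. Whether marrow content sets these levels was not tested.

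**Figure D4:**
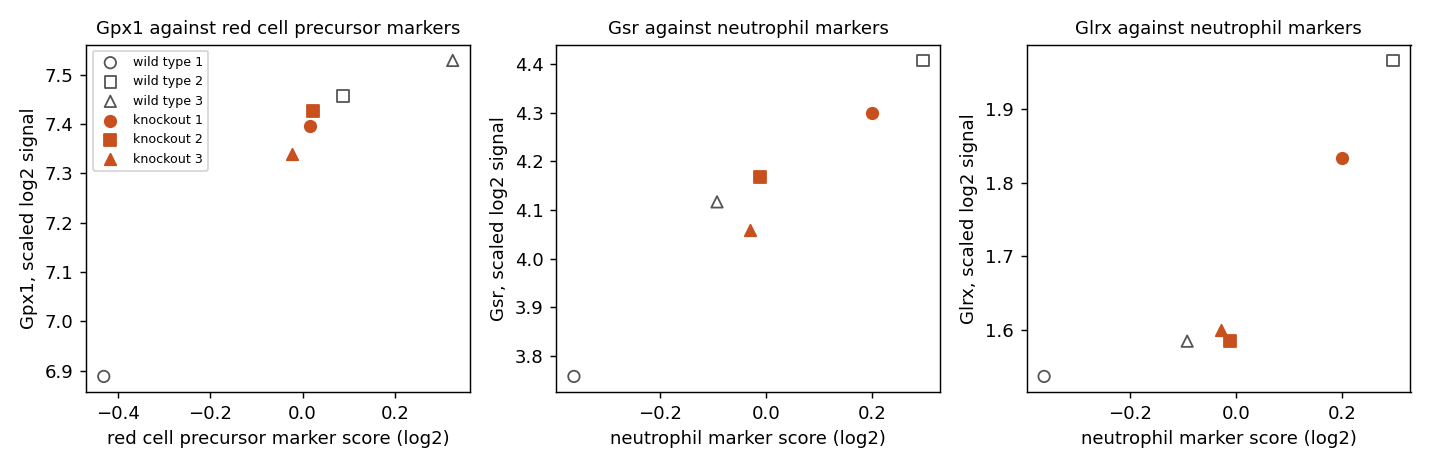
Scaled log2 signal of Gpx1, Gsr and Glrx against the marker score of red cell precursors or neutrophils on the same array (mean log2 deviation of the markers). Open symbols are wild type and filled symbols knockout. Wild-type array 1 is the low end of each panel, and wild-type array 3 (Gpx1) or 2 (Gsr, Glrx) the high end.

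Other genes of the same pathways were described from lists. Of all features, 60.7% lay above 0, 5.7% reached an unadjusted p under 0.05 by limma and 12.4% had groups that did not overlap. Of 34 further glutathione genes 31 were measured, 20 lay above 0 (64.5%), 1 reached an unadjusted p under 0.05 and the median was 0.04. Groups did not overlap in 5 of them (16.1%), 4 higher and 1 lower in knockout. Those with the lowest unadjusted p were Gstt2 at 0.24 ± 0.09 and Gstt3 at 0.20 ± 0.08, both theta-class transferases, each with all knockout arrays above all wild-type arrays. The highest estimate, 0.33 ± 0.20, was that of Gpx6, whose groups overlapped, and it is named after its value was seen. Gstt2 gave 2.73, 2.43 and 2.72 in the wild-type pools against 2.86, 3.24 and 3.19 in knockout. Gstcd was at -0.27 ± 0.13 by its brighter probe, with all knockout arrays below all wild-type arrays. Of 21 further thioredoxin, selenoprotein and superoxide genes all were measured, 16 lay above 0 (76.2%), and the median was 0.07. On each side 1 was at an unadjusted p under 0.05. Groups did not overlap in 6 of them (28.6%), 5 higher and 1 lower in knockout. Sesn3, a sestrin of the stress response, was at 0.24 ± 0.09, and Ccs, the chaperone that loads copper onto Sod1, at 0.15 ± 0.07. Secisbp2, which lets ribosomes insert selenocysteine, was at -0.25 ± 0.10. It gave 2.62, 2.86 and 3.01 in the wild-type pools against 2.57, 2.44 and 2.13 in knockout, groups that did not overlap. These genes had limma adjusted p-values of 0.835 to 0.866.

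Of 25 further Nrf2 target, iron, heme and NADPH genes, 16 lay above 0, 0 reached an unadjusted p under 0.05, and the median was 0.02. Sqstm1, an autophagy receptor that binds Keap1, was at -0.26 ± 0.13, and the ferritin chains Ftl1 and Fth1, which store iron, each at 0.12 ± 0.06. NADPH oxidases make superoxide, and 7 of the 12 listed genes were measured. Nox3, the oxidase of the inner ear, did not pass the filter. The organiser subunit Noxo1 was at 0.16 ± 0.09, and Ncf4 and Noxa1 at 0.11 ± 0.18 and 0.12 ± 0.25, all with limma adjusted p-values of 0.866 to 0.941.

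Among genes that respond to metal or glucocorticoid, 14 of 15 were measured, with 1 at an unadjusted p under 0.05 on each side and a median of 0.07. Of all features, 3.04% reached that level higher and 2.66% lower in knockout. Groups did not overlap in 2 of the 14 (14.3%), against 12.4% of all features. Tsc22d3, a glucocorticoid-induced leucine zipper protein, gave 14.1, 14.2 and 14.1 in the wild-type pools against 16.7, 18.4 and 17.2 in knockout. The groups were well apart, with a change of 0.30 ± 0.07 (SE; limma adjusted p = 0.600). Slc39a14, a carrier of zinc and iron into cells, gave 0.925, 0.896 and 0.918 in the wild-type pools against 0.712, 0.789 and 0.709 in knockout, a change of -0.31 ± 0.07 (limma adjusted p = 0.639). Slc39a10, also a zinc carrier, was at -0.17 ± 0.11. None of these passed the test either.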

How the data were processed

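RNA of each pooled cochlear sample was hybridised to a 1-colour (Cy3) Agilent array, and Agilent Feature Extraction 10.7 is named in the submitters' processing notes. For 55676 probes the authors deposited a raw signal intensity, per the file headers, on a linear scale and without flags for detection or saturation. The exported signal column and its background treatment are not given in the sources used here. The authors also deposited a log2 matrix. Tested here, each column equals the log2 raw signal of its array minus 1 constant.

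Here each array was scaled by subtracting its 75th percentile on the log2 scale. Probe names came from the platform annotation, in which 30625 probes had 1 gene, 0 had several and 25051 had none, with symbols updated by gene ID in RefSeq (GRCm38.p6, 30331 probes found). The filter left 33484 probes and, with the brightest probe for each gene, 27189 features. Knockout and wild type were compared in limma 3.58.1 (R 4.3.3; lmFit and eBayes, no covariates), with Benjamini-Hochberg adjustment over all features, a threshold of 0.05 and intervals of 95%. The fit was tested on simulated data. Correlations were tested by exact permutation, two-sided. The number of arrays limits the precision.

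The members and lists were chosen with earlier results of these data known. Every measured member is given. Values per array are given for the members with the lowest unadjusted p in each role group (up to 5, 3, 4 and 3, and both metallothioneins), for the gene of each group whose probe had the highest signal, a rule of naming only, and of each other list up to 3 genes by the lowest p are named. Inner ear, macrophage, adipocyte, red cell and neutrophil markers were examined beside them. Skeletal muscle and cartilage markers, and glia markers with Fabp7 among them, had median changes of 0.24, -0.08 and -0.09. The muscle median hides 1 pool, knockout array 2, that stood apart. Alternatives covered scaling, source of values, background, filter, probes, spread, block and each array left out.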

Additional observations from a re-analysis of the deposited data

How the results depend on the processing

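Over 18 alternatives, 6 of which left out an array, 0 members were called, and 714 of 720 changes of a single member moved by less than the spread within groups. The 6 that moved were Gpx4 (0.10) and Glrx2 (0.01) with quantile normalization and, when the probes of a gene were averaged, Txn2 (-0.04), Glrx2 (0.09), Aifm2 (0.01) and Mt1 (0.18). Many of the 720 could not move. A member's estimate stays as it is with another filter, raised dim signals, the trend and robust option, the replicate block or named genes only. The deposited matrix differs from the raw values by 1 constant per array. For these settings an unmoved estimate is no sign of stability. Changes ranged from -1.09 to -0.33 for Hmox1, from 0.10 to 0.18 for Gpx4 and from 0.11 to 0.19 for Hmox2, with adjusted p-values of at least 0.384. Limma called 1 feature, Fabp7, with quantile normalization, normexp with an offset of 50, dim signals raised to the 40th percentile, the trend and robust option, and named genes only. It called 3 with array weights and 0 to 2 with an array left out. At an unadjusted p under 0.05 there was 1 member with averaged probes (Mt1), with array weights (Hmox2) and with the replicate block (Hmox1), against 3 with trend and robust (Gpx4, Glrx2, Hmox2) and 2 among named genes only (Gpx4, Glrx2). The share of all features at that level is not given for these settings, so the counts cannot be set against a background. Groups did not overlap in 2 members (5.0%, against 11.2% of all features) with quantile normalization and 4 (10% against 14.3%) with normexp. With an array left out, 2 arrays are set against 3, and it was 8 to 17 members, 20% to 42.5% against 18.5% to 27.3% of all features, the highest count being without wild-type array 1 (27.1% of all features). The members' median was 0.026 with quantile normalization. The median of all features was 0.018 there and 0.0047 with no filter. The median of the heme, quinone and Nrf2 group was 0.048 with averaged probes and 0.067 to 0.092 with an array left out. That of the glutathione group was 0.039 with array weights and 0.0047 to 0.054 with an array left out, and that of the thioredoxin group -0.032 to 0.038, the negative value without wild-type array 1. The cause of these shifts was not tested. The replicate numbers showed no sign of pairing in the deviations, which correlated at -0.13, -0.04 and -0.14 between like-numbered arrays. The replicate block called 0 features, as did the main fit, so that count cannot tell paired from unpaired samples. Detection limits of the arrays are unknown.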
